A study of Mus musculus with 16 samples.

Results

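The accessible chromatin of 7 genes of glucose transport and glucose sensing, Slc2a2, Slc2a1, G6pc2, Pfkl, Pklr, Pkm and Pcx, was described in mouse pancreatic islets. The genes were chosen by name, and their regions by position. Overlapping or touching peaks of the 16 sample lists were merged on chromosomes 1 to 19, and a region belonged to a gene if it overlapped the annotated gene body or the 3 kb upstream of it. This gave 63 of 347712 autosomal regions, and 18 of these 63 had a peak in all 16 samples, of 40940 such regions in all. The islets came from 8 inbred strains, each with 1 female and 1 male sample, and were assayed by ATAC-seq, which tags accessible DNA for sequencing with a transposase. The classical strains were 129S1_SvImJ (129), A_J (AJ), C57BL/6J (B6), NOD_ShiLtJ (NOD) and NZO_HlLtJ (NZO), and the wild-derived strains were CAST_EiJ (CAST), PWK_PhJ (PWK) and WSB_EiJ (WSB). No treatment or genetic change was labelled in any group, no age was given in the labels, and the number of mice behind each sample was not given in the labels, which name a selection of 50 islets. The comparison of strains asks where the chromatin of these genes varies with the genome of the mouse.

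Glucose enters the mouse beta cell through GLUT2, the product of Slc2a2, is phosphorylated and passes through glycolysis. Pyruvate at the end of glycolysis enters mitochondrial metabolism, where pyruvate carboxylase replenishes intermediates of the citric acid cycle, and the ATP made closes potassium channels and triggers insulin release. The islet enzyme G6PC2 turns glucose 6-phosphate back into glucose, and so shifts the glucose level at which the cell responds.

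The number of accessible regions differed widely among the genes. Slc2a2 had 18 regions, of which 4 were called in all 16 samples, 10 in 2 to 15 samples and 4 in a single sample. Pcx, by far the longest of the genes at 111.3 kb, also had 18 regions, 4 of them in all samples and 7 in a single sample. Slc2a1 had 10 regions with 3 in all samples, Pkm 8 with 2, G6pc2 5 with 4, Pfkl 3 with 1 and Pklr a single region, which lacked a peak in the PWK male. Per 10 kb of gene and upstream sequence, Slc2a2 had 4.94 regions and Pcx 1.58. In all, 28.6% of the member regions were called in every sample against 11.8% of all autosomal regions, and 22.2% were called in a single sample against 46.4%. Member regions were also wider, with a median of 400 bases against 200.

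**Figure D1:**
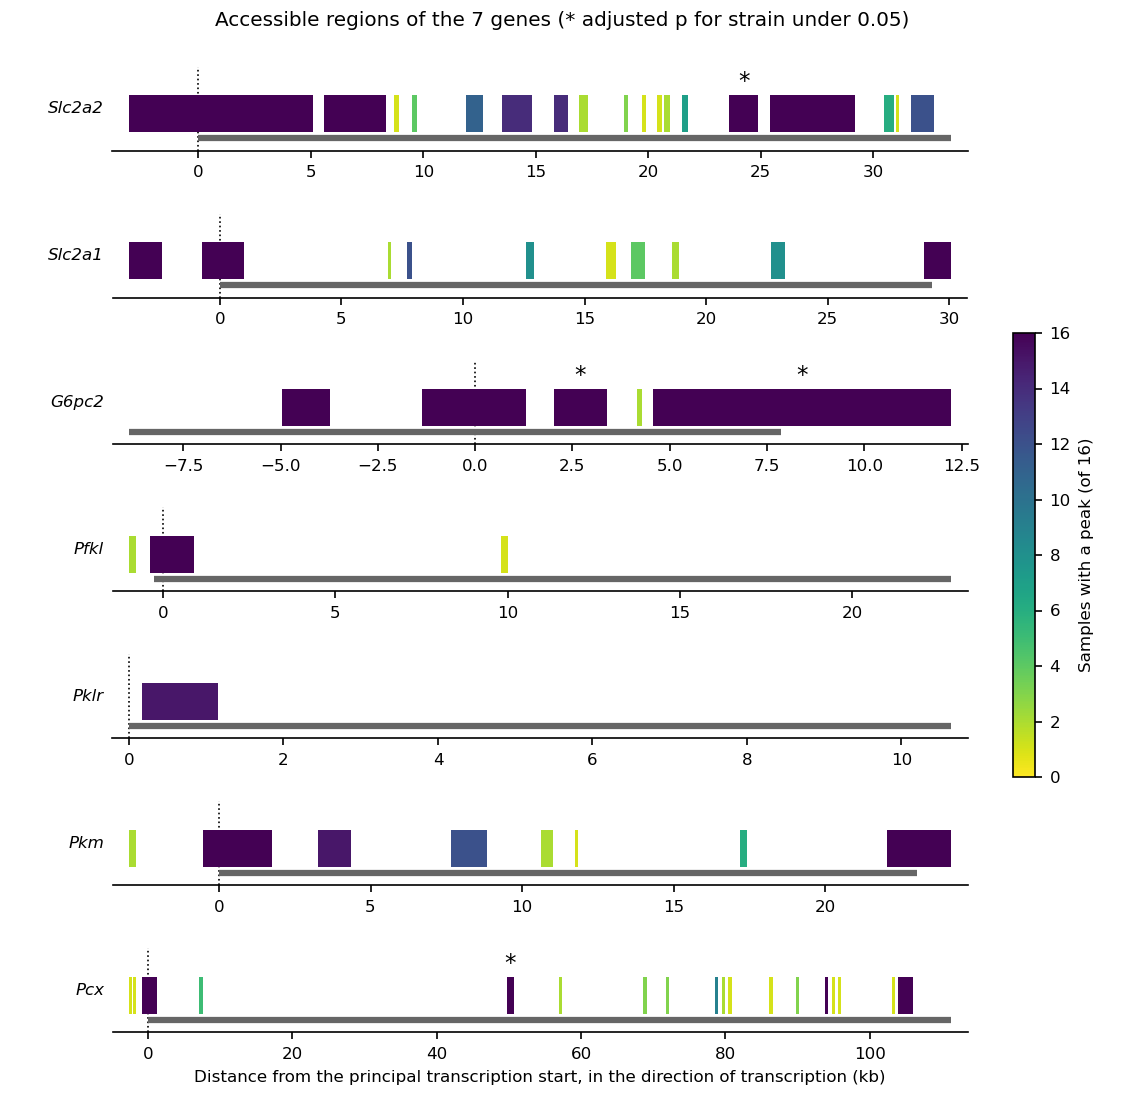
Position of the 63 regions along the 7 genes. The horizontal axis of each row is the distance from the principal transcription start in kb, the grey bar is the gene body, each box is a region coloured by the number of samples with a peak, and an asterisk marks the 4 regions whose adjusted p for strain was under 0.05. The regions at the starts of 6 genes are dark (all 16 samples), and the asterisks stand away from those starts.

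The next sequences show where the strain differences described below were centred, each being the 200 bases around the median summit of a region, on the plus strand of the reference genome (RefSeq, GRCm38.p6, which is the B6 genome). Capitals mark matches to the motifs searched on both strands, other than the E-box CANNTG, and a match on the minus strand stands as its reverse complement. The searched motifs were CANNTG and its special case CACGTG, the TATA box TATAAA, the CCAAT box CCAAT, the GC box GGGCGG, a homeobox core TAATTA, a FOX core TGTTTAC, the cAMP response element TGACGTCA, an HNF1 motif GTTAAT and a MAF motif TGCTGAC.
Slc2a2, intron, chr3:28721922-28722121: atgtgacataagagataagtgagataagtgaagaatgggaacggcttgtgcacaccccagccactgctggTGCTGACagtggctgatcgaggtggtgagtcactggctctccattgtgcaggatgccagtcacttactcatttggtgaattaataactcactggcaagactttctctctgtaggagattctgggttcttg
G6pc2, summit in a coding exon, chr2:69222898-69223097: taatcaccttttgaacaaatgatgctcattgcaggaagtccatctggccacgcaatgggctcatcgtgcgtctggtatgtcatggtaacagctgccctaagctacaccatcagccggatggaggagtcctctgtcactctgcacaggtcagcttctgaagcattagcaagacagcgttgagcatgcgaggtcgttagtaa
G6pc2, past the gene end, chr2:69228743-69228942: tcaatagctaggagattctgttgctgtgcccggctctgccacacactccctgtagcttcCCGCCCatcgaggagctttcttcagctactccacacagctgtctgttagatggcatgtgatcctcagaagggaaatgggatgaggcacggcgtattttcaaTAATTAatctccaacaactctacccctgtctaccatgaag
Pcx, intron, chr19:4560634-4560833: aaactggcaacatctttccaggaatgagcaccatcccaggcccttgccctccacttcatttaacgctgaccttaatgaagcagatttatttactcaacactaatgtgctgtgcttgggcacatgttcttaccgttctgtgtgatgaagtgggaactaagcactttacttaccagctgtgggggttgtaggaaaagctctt
The Slc2a2 window held a MAF motif, found in 5.22% of the 40940 windows of the same length around the summits of shared regions. The G6pc2 window past the gene end held a homeobox core (5.78% of windows) and a GC box (19.8%). The exonic G6pc2 window and the Pcx window held only E-boxes, which 69.2% of windows have. GC content was 45.5% in the Pcx window and 48.0% to 50.5% in the others.

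The sequences upstream of the starts of Slc2a2 and G6pc2 are shown because both genes define the glucose response of the beta cell. Each gives the 200 bases before the principal start, on the strand of the gene, and the Slc2a2 summit far upstream is shown beside them because all 16 samples had a peak summit there.
Slc2a2, upstream summit, chr3:28696048-28696247: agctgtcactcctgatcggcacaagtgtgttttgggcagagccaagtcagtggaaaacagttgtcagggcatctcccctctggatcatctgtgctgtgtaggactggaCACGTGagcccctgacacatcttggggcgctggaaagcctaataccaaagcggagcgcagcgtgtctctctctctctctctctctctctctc
Slc2a2, before the start, chr3:28697703-28697902: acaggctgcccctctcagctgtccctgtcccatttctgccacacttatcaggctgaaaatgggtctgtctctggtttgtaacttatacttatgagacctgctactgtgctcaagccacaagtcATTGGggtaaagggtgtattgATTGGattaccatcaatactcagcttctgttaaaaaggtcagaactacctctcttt
G6pc2, before the start, chr2:69219771-69219970: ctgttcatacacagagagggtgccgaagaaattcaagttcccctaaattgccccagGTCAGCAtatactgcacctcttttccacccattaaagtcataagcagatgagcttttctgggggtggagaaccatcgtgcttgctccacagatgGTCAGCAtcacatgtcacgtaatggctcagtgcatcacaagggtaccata
The G6pc2 start window held 2 MAF motifs, found in 2.61% of the windows before 20755 protein-coding starts. The Slc2a2 start window held 2 CCAAT boxes, a motif present in 31.1% of start windows, and the upstream summit held CACGTG, present in 4.98% of summit windows. None of these 3 windows held the TATA box, which 9.12% of start windows have. These matches are letters in the B6 reference, and no strain sequence was examined.

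Values below are scaled signals, the deposited summit signal of a sample in a region divided by the median of that sample over the 40940 regions called in all 16 samples, so that 1 is the typical shared region. A sample is listed at 0 where its list had no peak, which does not show closed chromatin. Before scaling that median lay between 32 (PWK male) and 136 (CAST male), and since the lists hold no read totals signals could not be scaled to the reads of each sample. The samples were checked against marker genes: 8 of 11 islet endocrine genes had a start region in all 16 samples (Ins2, Sst and Ppy had none in any), and 10 of 11 acinar genes had none in any sample. Only the principal start of each gene was read, so a gene with none there may have a region at another start. Since islet genes such as Ins2 had none either, the acinar count does not measure the share of acinar cells. The NZO male stood apart. It correlated least with the other strains (mean Pearson's r across shared regions 0.765, against 0.783 to 0.869) and least with its own partner (0.848), and it had the highest summed signal at the starts of acinar (1.16), duct (3.35) and leukocyte (2.42) genes, where the other samples had at most 0.896, 1.41 and 0.613. The acinar sum came from Bhlha15 alone. Signal at gene starts relative to the other shared regions was also highest in the NZO male, by 1.713 on the log2 scale. It was 1.705 in the 129 female and lowest, 0.8458, in the B6 male. Since the marker sums were read at starts, a generally higher signal at starts and other cell types cannot be told apart in them. At endothelial starts the NZO male and the PWK male were listed at 0, and at fibroblast and stellate starts the NZO male had 0.327, in a range of 0.302 to 0.938. Krt19, Sox9 and Lyz2 had a start peak in the NZO male alone. The part of these cells in the results was not tested. Where leaving out that sample changed a call of the F test at a shared member region, this is stated. Calls of single strains gained without it are not named, and no values without it are given for the starts of other genes. In whole islets a difference in the share of a cell type and a difference in accessibility per cell cannot be told apart.

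Strain differences were called at 4 of the 18 regions shared by all samples, none of which covered a principal transcription start. The regions were in an intron of Slc2a2, in the middle and beyond the end of G6pc2 and in an intron of Pcx. The test was limma's moderated F test over 8 strains with sex in the model, with Benjamini-Hochberg adjustment over all 40940 shared regions, and a call needed an adjusted p under 0.05. The share of members called, 22.2%, stood beside 35.7% of all shared regions, so the count was not above the background. With no centring of the samples the order turned, with 77.8% of members beside 63.2% of all shared regions. Of the 6 shared regions over a start, 0 were called (at an unadjusted p under 0.05, the whole set of 18 had 5), where 20.9% of the 9234 shared regions over protein-coding starts were called, and of the other 12 members 4 were called, where the share elsewhere was 40.0%. Over the 18 members, the median range of the 8 strain means was 0.997 on the log2 scale, from 0.518 to 1.67, and over all shared regions 1.11.

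**Figure D2:**
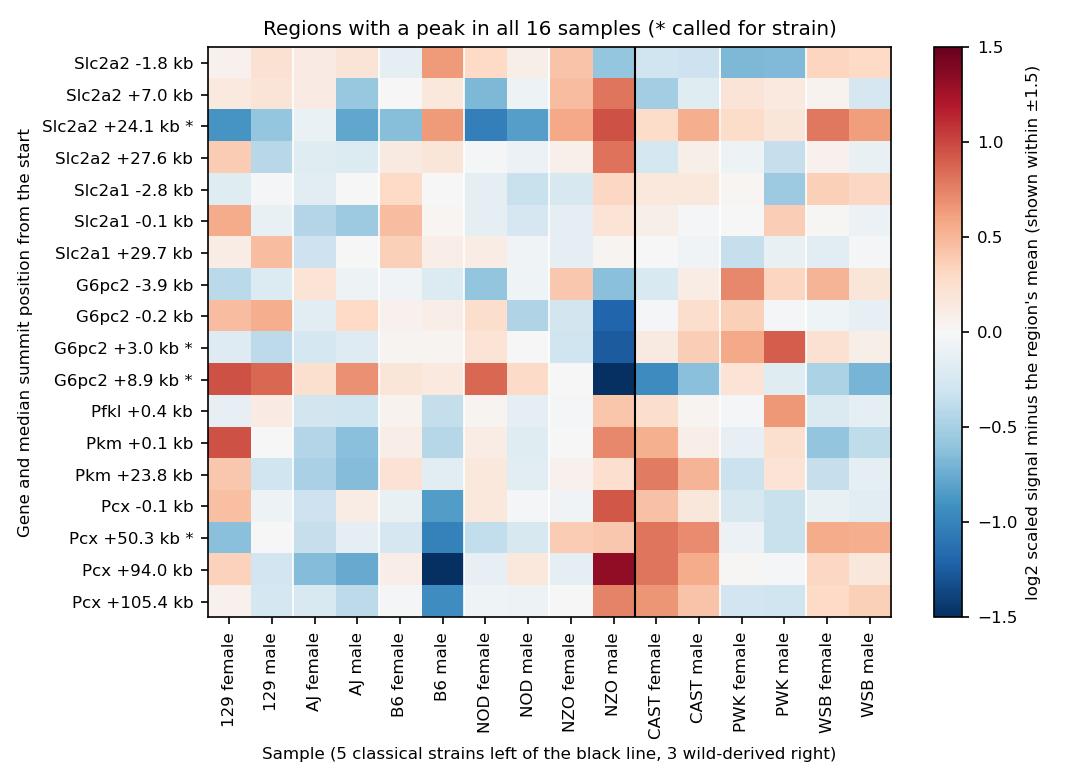
Scaled signal of the 18 shared regions in the 16 samples, as log2 minus the mean of the region. Rows are named by gene and by the distance of the median summit from the start, columns are samples, red is above and blue below the mean of the row, and 2 of 288 cells lay beyond the colour range. The NZO male column departs from the NZO female in both directions, with values from -1.80 to 1.32 over the whole panel.

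Slc2a2 encodes GLUT2, the low-affinity glucose transporter of the mouse beta cell, and lies on chromosome 3 (28697903 to 28731359, plus strand). Its inner regions also lie in introns of the annotated gene 1700112D23Rik. Its start lay within a region of 8185 bases with a scaled signal of 0.871 to 2.17 (median 1.49). Most summits in that region were away from the start: all 16 samples had a summit about 1.76 kb upstream, 13 had another in the intron at about 4.19 kb, and 4 (the AJ male, both NZO samples and the PWK female) had one within 100 bases of the start, where the signal was 0.346 to 0.617. The intron summit was the higher one in 6 samples, the 129 and AJ males and both sexes of NOD and PWK. WSB had the highest mean over the region (1.72 ± 0.0221, SD, n = 2) and PWK the lowest (0.873 ± 0.00285), and PWK was the only strain whose samples both lay below those of the next in order, CAST (1.12 ± 0.0103). The strain test did not pass (adjusted p = 0.176), but it did without the NZO female (0.0236), without the NZO male (0.0381) and with no centring of the samples (0.0261).

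The region 24.1 kb into Slc2a2 (chr3:28721501-28722773), whose summit lies in an intron, differed among strains. It also holds the annotated start of a shorter Slc2a2 transcript. In the classical strains the female and male values were 0.914 and 1.13 in 129, 1.57 and 0.982 in AJ, 1.08 and 2.61 in B6, 0.826 and 0.951 in NOD, and 2.49 and 3.25 in NZO. In the wild-derived strains they were 2.05 and 2.46 in CAST, 2.03 and 1.91 in PWK, and 2.91 and 2.60 in WSB. Both samples of 129, AJ and NOD thus lay below every sample of NZO, CAST, PWK and WSB, whereas the B6 female lay among the low and the B6 male among the high samples. NZO was 3.24 times NOD (2.87 ± 0.538 against 0.888 ± 0.0888, SD, n = 2 each), and strain was called (limma F test, adjusted p = 0.0109). NOD was the only single strain called against the mean of the other 7, by -1.05 ± 0.265 on the log2 scale (SE, adjusted p = 0.0497), beside 3.02% of all shared regions called for NOD. That call passed in only 12 of 26 alternatives, and not without the NOD female (0.497) or the NOD male (0.412). The strain call held without the NZO male (0.0139) and missed the threshold in 1 of 34 alternatives, that of regions called in at least 12 samples (0.0608).

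The other 2 shared regions of Slc2a2 did not pass. They had their summits in introns 6.96 kb and 27.6 kb from the start, with adjusted p of 0.112 and 0.548. In both the NZO male was the highest of all samples, at 1.04 and 1.25, where the medians were 0.630 and 0.688. Between 6.96 and 24.1 kb Slc2a2 carried a series of weak regions that depended on strain and sample. The strongest, 13.8 kb from the start, was called in both sexes of 6 strains and reached 0.904 in the CAST male. Both CAST samples (0.896 in the female) lay above the 14 others, of which the NOD male was the highest at 0.744. Near the 3′ end, a region over untranslated sequence 30.7 kb from the start had a peak in both sexes of 129, CAST and WSB and in no other sample, with at most 0.466 in the 129 female.

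Slc2a1 encodes GLUT1, the transporter that supplies most tissues with glucose at rest, and lies on chromosome 4 (119108711 to 119137983, plus strand). Its start region had scaled signals from 1.05 in the AJ male to 2.28 in the 129 female (median 1.53), and AJ had the lowest mean (1.10 ± 0.0594). Stronger signals came from a region 2.77 kb upstream (1.91 to 3.57, median 2.78) and from one at the 3′ end with its summit 427 bases past the gene (2.10 to 3.67, median 2.65). The latter summit lies in an intron of Gm12868. WSB was highest upstream (3.50 ± 0.0868), and its samples lay above those of the next strain in order, B6. None of the 3 regions passed the strain test (adjusted p = 0.397 upstream, 0.264 at the start and 0.436 at the end). Peaks inside the gene varied between samples. In an intron 23.0 kb from the start, both sexes of B6, NOD and WSB had a peak, with 0.849 and 0.875 in WSB. In an intron 17.4 kb from the start the NZO male reached 1.02, where the other samples had at most 0.145.

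G6pc2 encodes the glucose-6-phosphatase of the islet and lies on chromosome 2 (69211073 to 69227841, plus strand). Its principal start was the most accessible place of the gene, with scaled signals from 1.38 in the NZO male to 4.59 in the 129 male (median 3.20), and it ranked above 88.7% of all shared regions by mean level. The 129 samples (4.47 ± 0.176, SD, n = 2) were the highest and lay above both PWK samples, the next in order, and NZO had the lowest mean (1.99 ± 0.865), though the NOD male lay below the NZO female. The strain test did not pass (adjusted p = 0.141), and of the alternatives it passed only without the NZO female (0.0416). A weaker intron region 3.92 kb upstream of that start, inside the longer annotated gene body, had its highest mean in PWK (1.55 ± 0.293) and its lowest in NOD (0.867 ± 0.223), with an adjusted p of 0.255.

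The region with its summit 3.03 kb downstream of the G6pc2 start (chr2:69221983-69223345), centred on a coding exon, was most accessible in PWK. The female and male values were 1.33 and 1.16 in 129, 1.26 and 1.33 in AJ, 1.56 and 1.57 in B6, 1.76 and 1.52 in NOD, and 1.23 and 0.636 in NZO. In the wild-derived strains they were 1.66 and 1.96 in CAST, 2.24 and 2.84 in PWK, and 1.78 and 1.61 in WSB. Both PWK samples lay above the 14 others, and both NZO samples lay below every sample but the 129 male. PWK was 2.72 times NZO (2.54 ± 0.426 against 0.935 ± 0.423, SD, n = 2 each), and strain was called (adjusted p = 0.0291). Against the mean of the other 7 strains, PWK was higher by 0.82 ± 0.217 on the log2 scale (SE, adjusted p = 0.0262, beside 11.1% of all shared regions called for PWK) and NZO lower, by -0.87 ± 0.217 (0.0378, beside 5.19%). With no centring the PWK difference was -0.00207, and the PWK male is the sample with the lowest median signal. The PWK call did not pass without the PWK female (0.0589) or the PWK male (0.298), and the NZO call passed in only 12 of 26 alternatives and not without the NZO male (0.565). The strain test passed in 23 of 34 alternatives and failed without the PWK male (0.0731) and without any single sample of CAST (0.0544 and 0.0626), NOD (0.0567 and 0.0553) or WSB (0.0593 in both cases).

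Beyond the 3′ end of G6pc2 the order of the strains was another one. A region of 7673 bases (chr2:69224527-69232199) began in the gene and reached past its end, and its main summit lay 1002 bases past the end, 8.87 kb from the start. The female and male values were 2.00 and 1.87 in 129, 1.22 and 1.65 in AJ, 1.17 and 1.14 in B6, 1.87 and 1.26 in NOD, and 1.04 and 0.364 in NZO. In the wild-derived strains they were 0.538 and 0.669 in CAST, 1.19 and 0.906 in PWK, and 0.745 and 0.636 in WSB. The 4 samples of CAST and WSB lay below those of every classical strain but NZO, and 129 and NOD had the highest means. The highest mean was 3.21 times the lowest (129, 1.94 ± 0.0922, against CAST, 0.603 ± 0.0929, SD, n = 2 each), and strain was called (adjusted p = 0.0146). CAST was the only single strain called, by -0.89 ± 0.277 on the log2 scale (SE, adjusted p = 0.0371, beside 20.6% of all shared regions called for CAST), and this call passed in 16 of 26 alternatives, but not without the CAST female (0.499), without the CAST male (0.1) or with no centring, where the difference was -0.101 (0.832). In the CAST female and both NZO samples the highest summit of the region was a different one, about 10.4 kb from the start. The strain call held without the NZO male (0.00324) and was lost with no centring (0.07) and with regions called in at least 12 samples (0.0759).

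The regions inside Slc2a2 and past the end of G6pc2 moved against each other over the 16 samples (Pearson's r of log2 signal -0.815). This is a description of the lowest r among the 153 pairs of shared member regions, chosen after the values were seen, and the highest was 0.923 between the Pcx regions 94.05 and 105.4 kb from the start. Where 129 and NOD were low at the former, they were high at the latter, and WSB and NZO the reverse. A region in an intron 4.23 kb from the G6pc2 start was called in both sexes of 129 (0.345 and 0.275) and in no other sample.

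**Figure D3:**
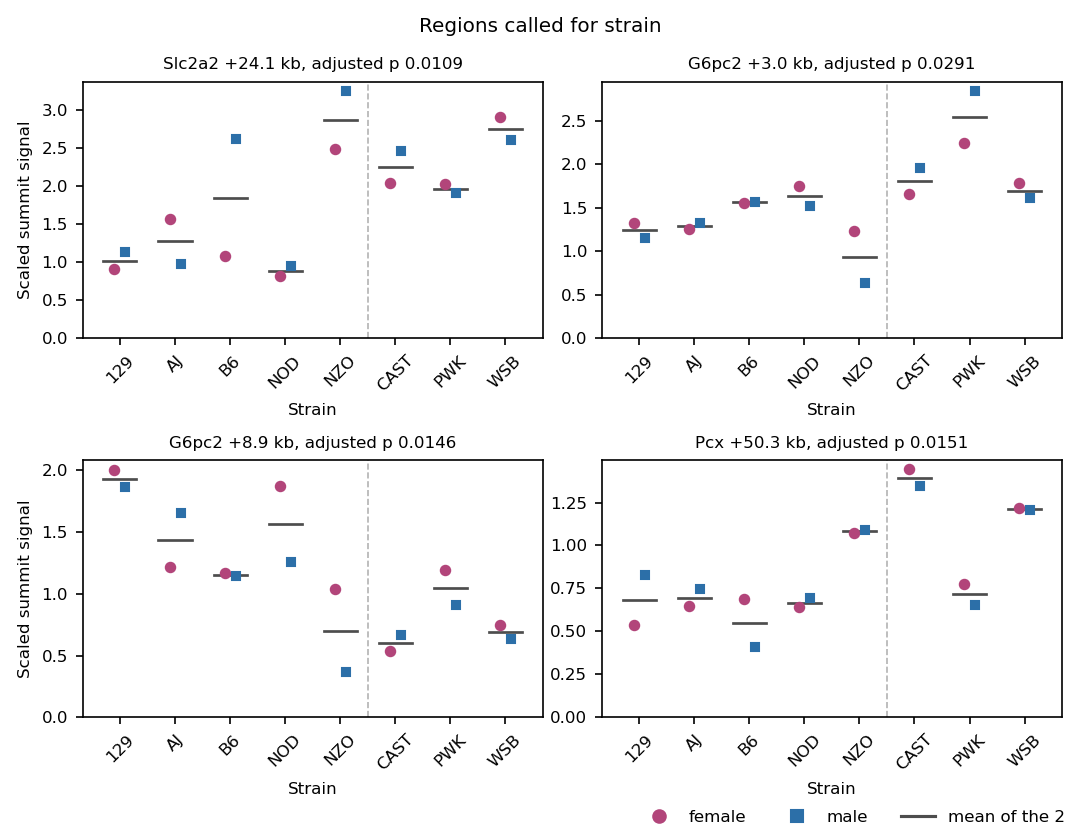
Scaled summit signal by strain in the 4 regions called for strain, named by the distance of the median summit from the start. Circles are females, squares males and bars the mean of the 2 samples, and the dashed line parts the 5 classical from the 3 wild-derived strains. PWK is highest at G6pc2 +3.0 kb and CAST at Pcx +50.3 kb, both with both samples above the 14 others.

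Pfkl encodes the liver-type subunit of phosphofructokinase, which commits glucose to glycolysis, and lies on chromosome 10 (77986947 to 78010083, minus strand). Only its start region was shared, with a summit 0.435 kb into the transcript. Scaled signals ran from 2.10 in the B6 male to 4.19 in the PWK male (median 2.63). Most strains overlapped their neighbours in order, and strain was not called (adjusted p = 0.465).

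The pyruvate kinases, which make pyruvate at the end of glycolysis, had unlike chromatin. Pklr, the gene of the liver and red cell enzyme, lies on chromosome 3 (89136142 to 89146784, plus strand) and had 1 region, with a summit 0.397 kb downstream of the principal start and over another annotated start. It was called in 15 samples at 0.419 to 1.13 and was listed at 0 in the PWK male, and since the test took regions called in all samples it was left out of it. CAST (1.12 and 1.04) and NZO (0.852 and 1.13) were the highest strains, and the samples of NZO lay above those of 129, the next in order.

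Pkm, the gene of the muscle-type enzyme that most cells use, lies on chromosome 9 (59656368 to 59679375, plus strand). Its start region was called in all samples at 1.15 in the AJ male to 3.43 in the 129 female (median 1.77), and strain was not called (adjusted p = 0.129), though it was without the NZO female (0.0278). In this region every neighbouring pair of strains in the order of means overlapped. The shared region at the 3′ end of Pkm overlaps both that gene and Gramd2, whose start it covers. Its summit lies 797 bases past the end of Pkm, in an exon of untranslated sequence of Gramd2. CAST was the highest there (1.08 and 0.89, against at most 0.828 in any other sample) and was called as a single strain (0.72 ± 0.217 on the log2 scale, SE, adjusted p = 0.0311), whereas the F test of strain did not pass (0.102). With the second deposited signal, whose definition the files do not give, the CAST difference was -0.19, and the call did not pass without the CAST female (0.334) or male (0.183). A region with its summit in an intron 7.78 kb from the Pkm start also covers another annotated Pkm start. It was called in both sexes of 6 strains at 0.217 to 0.5 and was listed at 0 in all 4 samples of AJ and NOD.

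Pcx encodes pyruvate carboxylase, the anaplerotic enzyme of the mitochondrion, and lies on chromosome 19 (4510472 to 4621752, plus strand). Its start region was strong, with scaled signals from 1.67 in the B6 male to 5.71 in the NZO male (median 2.88), and not called (adjusted p = 0.269), though it was without the NZO female (0.0307), which had a value near the median. At the other end, a region 105.4 kb from the start had signals of 1.27 to 4.04 (median 2.35), with CAST highest (3.53 ± 0.392) and B6 lowest (1.82 ± 0.789). It also covers the start of Lrfn4, so that region too belongs to both genes, and its adjusted p for strain was 0.0946. The F test passed in 9 of 35 alternatives. Among them were no centring (0.00411), a pseudocount of 10 (0.0465), the stricter threshold (0.0435) and centring within bins of GC content (0.0388). It also passed without the B6 female, the NZO female or the NZO male. A weaker region over a coding exon 94.05 kb from the start ran from 0.229 in the B6 male to 2.00 in the NZO male, with an adjusted p of 0.156 (0.0226 without the B6 female and 0.0157 without the NZO female).

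The region called for strain in Pcx lay in an intron 50.3 kb from the start (chr19:4560177-4561148). The female and male values were 0.534 and 0.826 in 129, 0.646 and 0.745 in AJ, 0.690 and 0.410 in B6, 0.640 and 0.695 in NOD, and 1.07 and 1.09 in NZO. In the wild-derived strains they were 1.44 and 1.35 in CAST, 0.774 and 0.656 in PWK, and 1.22 and 1.2 in WSB. All 6 samples of CAST, WSB and NZO lay above the other 10, and those 3 strains did not overlap with one another. CAST was 2.53 times B6 (1.39 ± 0.0692 against 0.550 ± 0.199, SD, n = 2 each), and strain was called (adjusted p = 0.0151). As a single strain CAST was called too, by 0.85 ± 0.215 on the log2 scale (SE, adjusted p = 0.0129). The F test did not pass with CAST left out as a strain (adjusted p = 0.0876) or with regions called in at least 12 samples (0.0578). Neither call passed without the CAST female or without the CAST male. Leaving out either leaves that strain 1 sample, so this loss does not show how far the calls rest on CAST.

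**Figure D4:**
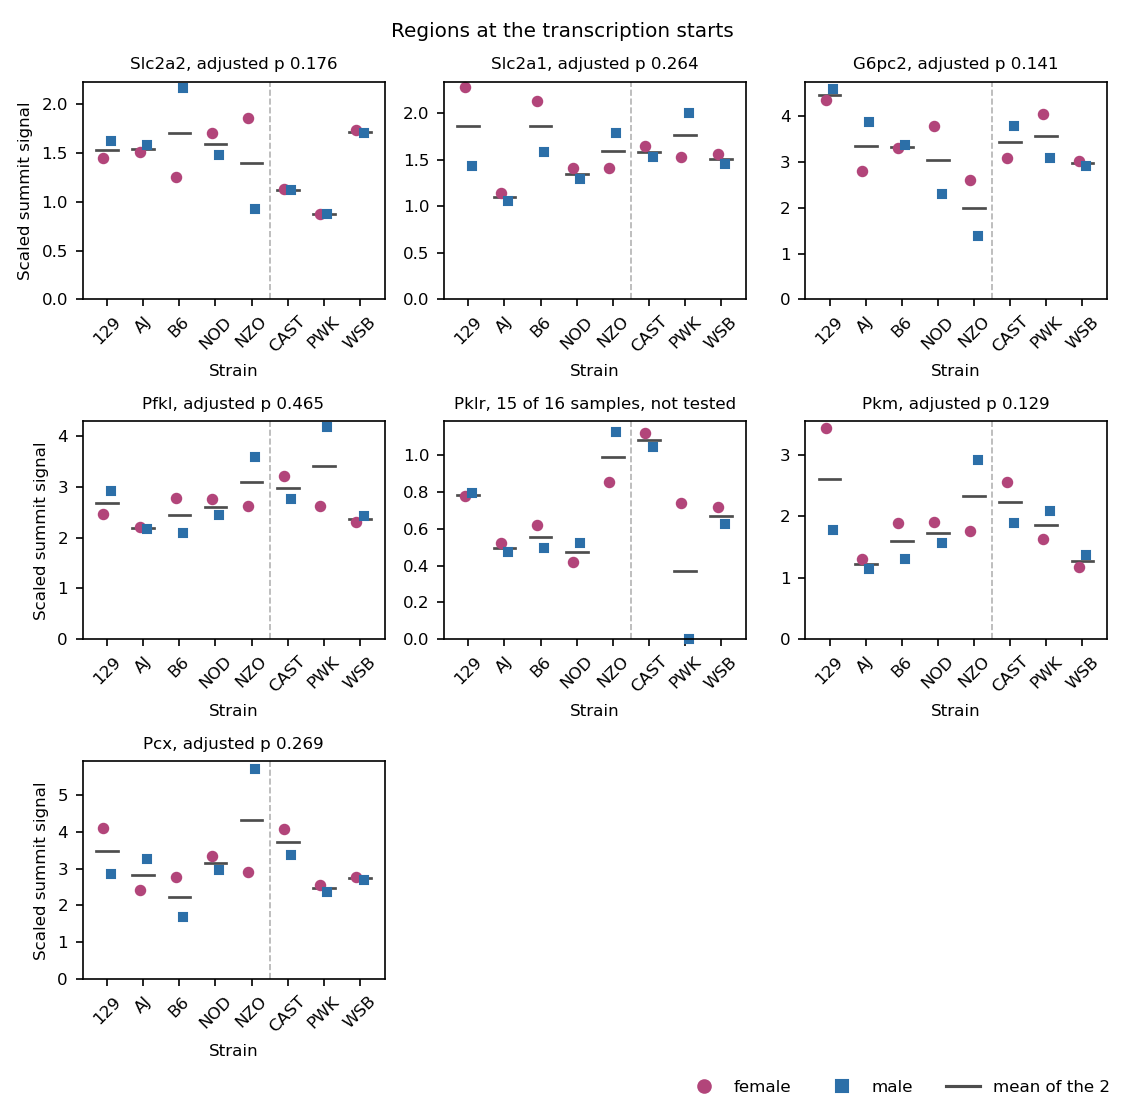
Scaled summit signal by strain in the regions at the transcription starts of the 7 genes, with females as circles, males as squares and bars for the mean of the 2. The dashed line parts classical from wild-derived strains, and the adjusted p is that of the limma F test of strain. None of the 6 tested starts was called, and the PWK male has no peak at Pklr.

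Counting calls of single strains in place of the F test, the 18 shared regions gave 6. CAST had 3 of the 18 (beside 20.6% of all shared regions), and NOD (3.02%), NZO (5.19%) and PWK (11.1%) had 1 each. The CAST calls include the region over the Gramd2 start at the 3′ end of Pkm. In 129, AJ, B6 and WSB none of the 18 was called, beside 3.09%, 6.81%, 3.13% and 5.81% of all shared regions. The 8 contrasts share samples, so these calls are not independent of one another.

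The number of regions with a peak in both sexes was highest in CAST and WSB. Of the 63 member regions it was 38 in CAST, 36 in WSB, 27 in 129, 26 in NOD, 25 in B6, 25 in NZO, 23 in PWK and 19 in AJ. AJ had only 1 region beyond the 18 shared ones, while CAST had 20 and WSB 18. The same share over all autosomal regions was 31.4% in CAST, 32.2% in WSB, 23.4% in PWK and 17.4% to 23.2% in the classical strains, so CAST and WSB were highest over all regions too. Member regions averaged 32.3 ± 8.14 in the 3 wild-derived strains and 24.4 ± 3.13 (SD) in the 5 classical ones. That gap of 7.93 did not pass a two-sided exact permutation test (p = 0.125, where the 56 splits allow no p below 0.0179). With the same number of strongest peaks (77887) taken from every sample the difference was 1.53 (exact p = 0.536). Of the 31 regions called in 2 to 15 samples, 8 had the same call in both sexes of every strain, and 5 of those belonged to a single strain. These were a Slc2a2 and 2 Pcx regions in WSB, a Pkm region in CAST and the G6pc2 region in 129. The same counts were not made over all autosomal regions, so they do not show whether the members differ from other regions. Of the 14 regions called in 1 sample, 10 (71.4%) were in wild-derived samples, where 57.8% of all 161174 such regions were, the CAST female having 5 and the WSB female 4.

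**Figure D5:**
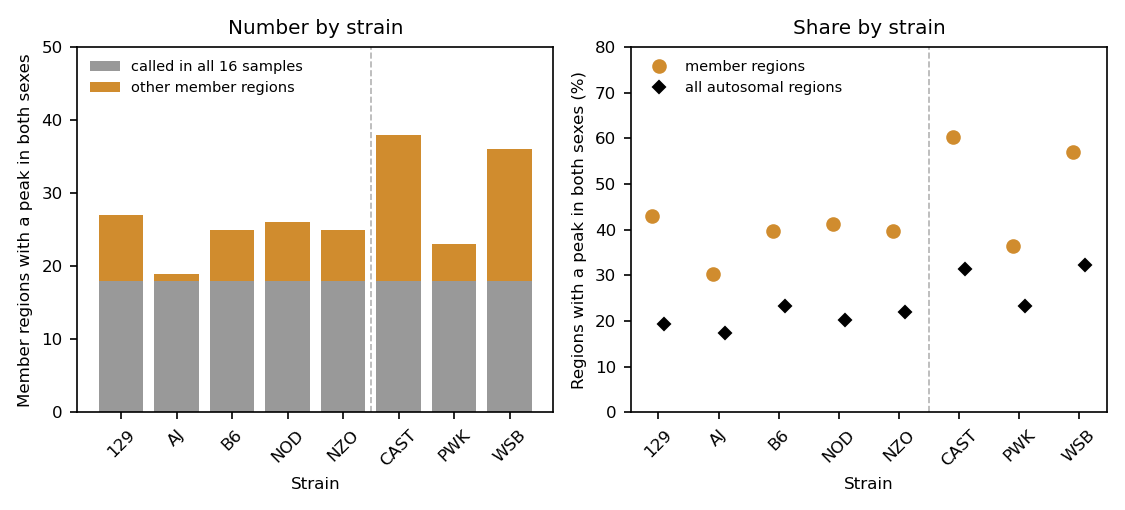
Member regions with a peak in both sexes of a strain, as a number on the left (grey for the 18 shared by all samples, orange for the rest) and as a share on the right, beside the same share over all autosomal regions (diamonds). CAST (38) and WSB (36) are the highest in both, and PWK (23) lies among the classical strains.

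Neither strain class nor sex was called at any of the 18 shared regions. For wild-derived against classical strains (limma on the strain means), 0 members and 0.0342% of all shared regions were called. At an unadjusted p under 0.05 there were 4960 of all shared regions and 1 member, G6pc2 at 3.03 kb. Its difference, wild-derived minus classical, was 0.60 ± 0.253 on the log2 scale (SE, limma adjusted p = 0.367). The differences of the members had a median of 0.114, from -0.716 past the end of G6pc2 to 0.71 in the Slc2a2 intron, and 11 of 18 were above 0, beside a median of -0.0464 over all shared regions. For sex (limma, strain in the model), 0 members and 0 of all 40940 shared regions were called, and at an unadjusted p under 0.05 there were 0 members and 1621 regions. Female minus male ran from -0.185 to 0.253, with a median of 0.0798, and 14 of 18 were above 0, beside a median of -0.0108 over all.

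Other genes of glucose metabolism were read at their principal starts. Of 74 listed genes, 71 had an annotated autosomal start under the listed symbol. Of these 49 had a region in all 16 samples, 7 in some and 15 in none, and Hk1, the gene of hexokinase 1, was among the last, as were Slc2a4, Slc2a5, G6pc and Pck1. Strain was called at 14 of the 49 (28.6%, against 20.9% of starts in all), strain class and sex at 0.

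Among the 14 called starts, Fbp2 and Fbp1, neighbouring genes of the gluconeogenic fructose bisphosphatases, had the smallest p. Fbp2 was highest in NZO (1.72 ± 0.216) and lowest in CAST (0.212 ± 0.0197, adjusted p = 0.0016), and Fbp1 was highest in AJ (1.39 ± 0.0933) and lowest in B6 (0.294 ± 0.0448, 0.00242). Slc2a12, a further member of the glucose transporter family, ranged from 3.84 ± 0.670 in CAST to 8.24 ± 0.668 in AJ (0.0103). Mlxipl, which encodes the glucose-responsive factor ChREBP, was lowest in AJ (0.348 ± 0.0296, 0.0159). Mdh1, of the malate-aspartate shuttle, had the strongest start of these and was lowest in PWK (8.52 ± 1.84, against 19.3 ± 2.15 in AJ, 0.0227). Aldoc (limma F test, adjusted p = 0.014), Pdk4 (0.0215) and Slc25a13 (0.0221) were called too. At Aldoc and Pdk4 the NZO male was the highest sample (2.745 and 2.818, where the NZO female had 1.42 and 1.037). CAST was called lower than the other strains at 4 of the 49 starts, beside 6.93% of the 9234 shared starts.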

How the data were processed

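The authors trimmed reads with cutadapt 2.0 and aligned them to mm10 with Bowtie2 2.3.4.1 (versions per the submitters' processing notes). Mitochondrial reads and duplicates (Picard 2.9.2) were removed, and MOSAiCS called peaks sample by sample (FDR 0.05). Whether reads were shifted for the transposase was not given in the sources used here. The authors also aligned reads to individual strain genomes and then used the B6 alignments, and the effect of that choice at single regions was not examined here. The deposited signal is the unscaled whole-number signal at a peak's summit, and the authors give its significance as −log10 of a p-value, used only for the stricter threshold of 10. The strain lists give reproducibility as −log10 too.

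Each sample took the signal of its highest summit in a region. The values log2(signal + 1) were compared after subtracting the sample median of the regions called in all 16 samples (limma 3.58.1, R 4.3.3, Python 3.11.15), since the lists share no scale, so fold changes are relative to that median and understated where signal is low. Scripts were tested on simulated data. The female and the male were the only replicates of a strain. With strain and sex in the model, p-values rest on how far the female-male difference varied among the strains. The p-values for wild-derived against classical strains, including those of the exact test, rest on the spread between strains. Genes and starts came from GENCODE M21, the principal start being that of the longest protein-coding basic transcript. Named for each gene were its start region, its smallest strain p, its highest signal, every strain call, and the strongest region called alike in both sexes of 2 to 14 samples. Members, lists and tests were chosen with earlier results of these data known. Chromosome X was not tested.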

Additional observations from a re-analysis of the deposited data

Results flagged for a closer look

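In 38 groups of 8 samples (females or males, over 18 regions and the number of member regions called), 4 held a sample set apart from the others, where chance gives about 1 in 20. The NZO male was 3 of the 4. This sample also had the highest acinar, duct and leukocyte marker signal, and the highest signal at gene starts relative to the other shared regions. The part of those cells, or of that general difference, in these values was not tested. The NZO male had 1.04 at the Slc2a2 region 6.96 kb from the start (next male 0.681), 1.25 at the Slc2a2 region 27.6 kb from the start (next 0.807) and 5.71 at the Pcx start (next 3.37), always the highest. The 129 male was the highest at the 3′ end of Slc2a1, with 3.67 against 2.86 in the next male. No region had opposite sex differences in all classical and all wild-derived strains.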

How the results depend on the processing

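The count of 4 regions called for strain was 22.2% of members, beside 35.7% of all. With no centring, where the unequal medians of the samples enter, it was 14 (77.8% beside 63.2%). With regions called in at least 12 samples it was 1 of 25 (4.0% beside 18.3%), and at the stricter threshold 1 of 7 (14.3% beside 34.2%). It was 4 or 5 with quantile normalization, centring within 10 bins of GC content, a pseudocount of 10, the second signal column, merging across 100 bases, the filter on low signal and no sex term. Leaving out 1 sample gave 2 to 10, with 10 without the NZO female (55.6% beside 60.1%) and 2 without either CAST sample, and leaving out 1 strain gave 2 (CAST) to 6 (NZO). The 6 calls of single strains became 26 with no centring, 1 at the stricter threshold, and 1 to 25 without 1 sample (25 without the NZO female, 10 without the NZO male or the B6 female, 1 without either CAST sample, and 2 or 3 without the PWK female or either NOD or WSB sample). The difference of 7.93 in regions called passed the exact test only without PWK (12.6, p = 0.0476), and was 5.1 to 12.6 without 1 strain. Strain class and sex gave 0 calls throughout. With CAST left out, the regions called for strain were 11.1% of members beside 15.5% of all, and with NZO left out 33.3% beside 49.7%. Over all shared regions, calls of single strains numbered 24037, with no centring 49749 and at the stricter threshold 7390. An alternative without the NZO male and the PWK male was chosen after seeing the data. It left 1 sample in each of these strains, and its count is not given. Over single regions, 571 values of the strain test kept their side of the threshold, 18 lost it and 29 gained it. Other causes were not tested. The labels give no replicate numbers, and the female and male of a strain were tied by the strain and sex terms of the model. Depth limits weak regions, where a missing peak cannot be told from a closed one.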
